A study of Mus musculus with 2 samples.

Results

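The collagen genes encode the chains of the triple-helical proteins that make up most of the extracellular matrix. They were taken by name, as every protein-coding gene of the GENCODE M21 annotation whose symbol is Col, a number, the letter a and a number. This rule found 44 genes of 21938 protein-coding genes and used no measured value. They comprise 11 fibrillar genes, 9 network genes, 9 FACIT genes (fibril-associated collagens with interrupted triple helices), 6 beaded filament genes, 4 transmembrane genes, 2 multiplexin genes and 3 others. Binding of CTCF was measured by chromatin immunoprecipitation sequencing in limbs of B6NCrl mouse embryos aged 14.5 days. The limbs came from several dissections, were pulverised and pooled, and held male and female embryos. There was 1 group of 2 libraries, numbered replicate 1 and replicate 2, and no other genotype or treatment. Both libraries name the same tissue sample, so the spread between them may be technical. The lists hold no expression values, so the tissue was not checked against marker genes, and whole limb mixes many cell types.

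CTCF is a zinc finger protein that binds a long, directional DNA motif. Together with cohesin it anchors chromatin loops, and loops form mostly between sites whose motifs point toward each other. In the embryonic limb, fibrillar collagens build the cartilage, bone, tendon and skin matrix, network collagens build basement membranes and the matrix of maturing growth plate cartilage, and FACIT collagens coat fibrils. The type IV genes lie in pairs that start back to back, so that both genes of a pair share a promoter region.

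Peaks were taken from the deposited optimal list, which the authors obtained from both replicates by an irreproducible discovery rate step. That list held 49959 peaks on the main chromosomes. The signal of a peak is its height in the authors' scale of a given list, and the pooled signal had a median of 58.38 (quartiles 29.84 and 141.8). Replicate signals are those of the nearest summit within 100 bp in each replicate's own list, with medians of 30.6 and 29.05 over the optimal peaks. They are on their own scale and are not fractions of the pooled signal. Gene counts below are shares of genes with exact 95% binomial intervals, which cover counting error only, and no test was made across genes. A motif means a match, within 50 bp of the summit, to a CTCF matrix learned from the strongest peaks, at a score that 5% of flanking windows also reach. Of optimal peaks on chromosomes not used to learn it, 81.2% had a motif.

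The sequences under the peaks that the results turn on are given first. They are read from the mm10 assembly on the strand of the motif, 5′ to 3′, and capitals mark the 20 bases matched by the matrix. The first 6 lie just inside fibrillar genes, the next 3 are at the strongest peaks inside any collagen gene, 3 lie in coding exons, and the last 2 lie at promoters.
Col1a1 intron peak at chr11:94937150-94937209, minus strand: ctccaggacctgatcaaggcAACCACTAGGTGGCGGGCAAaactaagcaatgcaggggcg
Col1a2 intron peak at chr6:4506379-4506438, minus strand: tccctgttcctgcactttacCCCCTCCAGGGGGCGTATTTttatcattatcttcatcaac
Col3a1 intron peak at chr1:45314108-45314167, minus strand: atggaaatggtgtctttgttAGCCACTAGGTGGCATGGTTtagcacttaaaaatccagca
Col5a1 intron peak at chr2:27887307-27887366, minus strand: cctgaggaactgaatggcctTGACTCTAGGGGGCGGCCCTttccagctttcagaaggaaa
Col11a1 peak at chr3:114032531-114032560, minus strand: aagaaAACCAGCAGAGGGCAGAACTgctgc
Col27a1 intron peak at chr4:63215277-63215336, plus strand: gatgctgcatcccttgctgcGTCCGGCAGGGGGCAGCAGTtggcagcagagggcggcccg
Col18a1 intron peak at chr10:77130713-77130772, plus strand: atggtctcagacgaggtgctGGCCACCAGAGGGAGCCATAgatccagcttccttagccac
Col22a1 intron peak at chr15:71917773-71917832, plus strand: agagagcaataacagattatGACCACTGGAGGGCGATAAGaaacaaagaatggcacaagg
Col16a1 intron peak at chr4:130087507-130087566, minus strand: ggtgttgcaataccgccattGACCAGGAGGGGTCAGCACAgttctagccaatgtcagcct
Col16a1 coding exon peak at chr4:130066997-130067056, plus strand: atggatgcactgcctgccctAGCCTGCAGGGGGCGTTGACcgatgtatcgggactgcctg
Col28a1 coding exon peak at chr6:8086973-8087032, minus strand: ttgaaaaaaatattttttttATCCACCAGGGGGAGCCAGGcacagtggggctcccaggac
Col8a2 coding exon peak at chr4:126309655-126309714, minus strand: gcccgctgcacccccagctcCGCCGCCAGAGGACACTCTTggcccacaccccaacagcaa
Col6a2 promoter peak at chr10:76623430-76623459, plus strand: aactcGACCGCTGGGGGGCGCTGCGgcccc
Col13a1 intron peak at chr10:61877969-61878028, plus strand: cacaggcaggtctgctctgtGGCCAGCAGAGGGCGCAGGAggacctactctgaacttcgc

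Only peaks with a motif are printed, so their capitals are variants of 1 motif by selection, and no 2 of them are identical. Their direction relative to the gene varied. In Col1a1, Col1a2, Col3a1, Col5a1 and Col11a1 the motif lies on the strand opposite to the gene, and in Col27a1 it lies on the gene's own strand. Over all 9 fibrillar peaks with a motif in the window 0.5 to 3 kb after the start, which also include those of Col2a1 and Col5a3 and a second of Col27a1, the motif was opposite to the gene in 5 and on its strand in 4. That share of 55.6% lies beside 51.3% for other protein-coding genes. The matrix scores of the Col1a2 and Col5a3 matches, 1.6 and 1.4, lie near the cutoff, since a peak scoring 0.7 counted as having no motif. The matches of the 14 sequences are descriptions of letters near a summit and not measured contacts.

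Most fibrillar collagens had a CTCF peak shortly after their start. A summit lay 0.5 to 3 kb downstream of the first transcription start site (TSS) in 9 of 11 fibrillar genes (81.8%), against 12.7% of all protein-coding genes. Over the same distance upstream, none of the 11 had a summit, against 11.9% of all protein-coding genes. This window was chosen after the summit positions had been seen, and neither share was tested. With the wider window of 0 to 5 kb, which was also chosen afterwards, 9 of 11 fibrillar genes had a downstream summit and 2 of 11 an upstream summit, beside 24.5% and 27.2% of other protein-coding genes. The same 0.5 to 3 kb window held a summit in 13 of 44 collagen genes (29.5%) downstream and 5 of 44 (11.4%) upstream. The downstream share mostly reflects the fibrillar genes, which were 9 of the 13. The other 4 genes of the 13 were Col9a2 and Col12a1 (2 of 9 FACIT genes), Col13a1 (1 of 4 transmembrane) and Col26a1 (1 of 3 others). No network, beaded filament or multiplexin gene was among them. That depends on the 3 kb edge, since the beaded filament gene Col6a3 had a summit 3513 bp after its first TSS (pooled 149.8). At 0 to 5 kb, 19 of 44 collagen genes (43.2%) had a downstream summit and 10 of 44 (22.7%) an upstream summit.

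**Figure D1:**
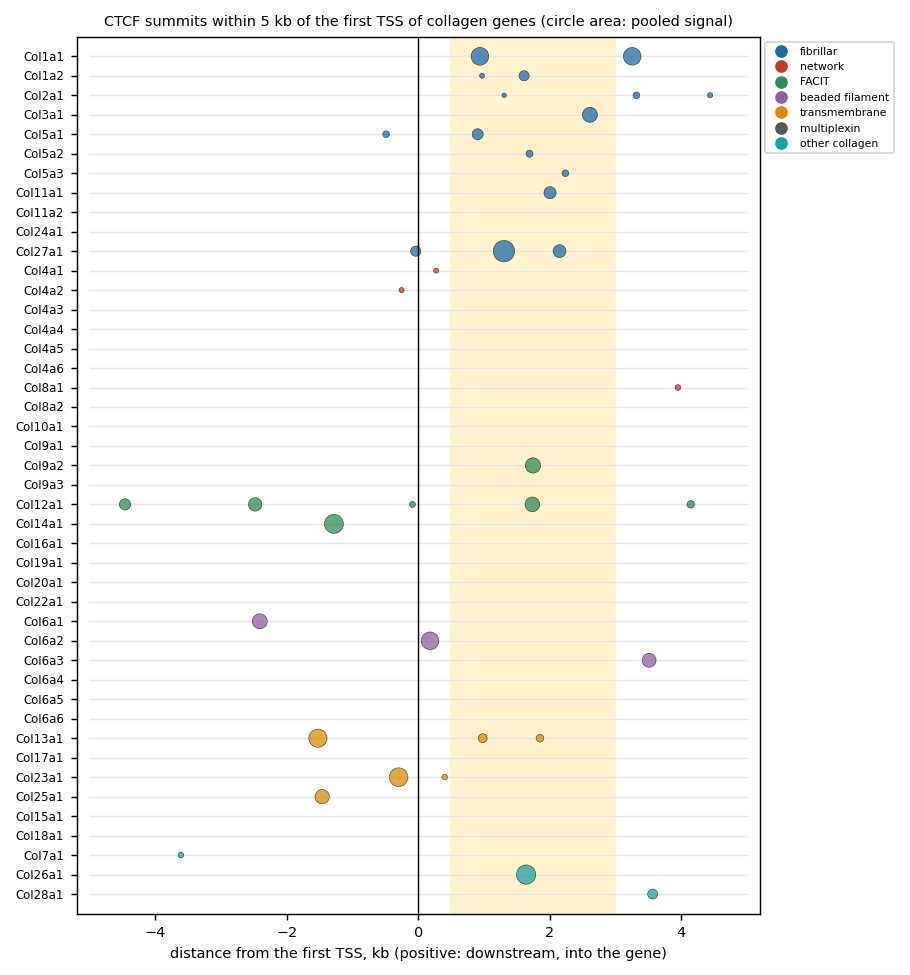
CTCF summits within 5 kb of the first TSS of each collagen gene, with distance from the TSS in kb on the x axis, genes grouped by subfamily on the y axis, and circle area giving pooled signal. The shaded band is 0.5 to 3 kb downstream, where 9 of 11 fibrillar genes had a summit, beside 12.7% of all protein-coding genes. The band was chosen after these positions had been seen, and 7 fibrillar genes kept a summit there in the conservative list.

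The type I genes, which encode the main collagen of bone, tendon and skin, both had such a peak. Col1a1 had a summit 939 bp after its first TSS in intron 1, with signals of 125.0 in replicate 1 and 121.1 in replicate 2 and a pooled signal of 240.7. A second Col1a1 peak of nearly the same height lay 3256 bp after the TSS in intron 6, at 119.9 and 119.8 (pooled 239.5). Their motifs lie on opposite strands and point away from each other, the first against and the second along the direction of transcription. Col1a1 also held weaker summits at 6225 bp (pooled 60.16) and 8326 bp (pooled 21.22). These 4 summits in 16.8 kb gave the highest density of any collagen gene, 23.8 per 100 kb. Col1a2 had its stronger summit 1611 bp after the TSS in intron 1, at 48.75 and 35.56 (pooled 79.69), and a weak one at 971 bp, at 6.086 and 13.24 (pooled 19.04). The weak Col1a2 peak was higher in replicate 2 and had no motif, while the stronger one was higher in replicate 1 and had a motif.

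Type III and type V collagens form fibrils together with type I. Col3a1 had 1 inside peak, 2613 bp after its TSS in intron 1, with signals of 94.79 and 76.52 (pooled 173.3). It was 1 of only 2 summits within 100 kb of Col3a1, the lowest number of any collagen gene. Col5a1 had 11 inside peaks, the second highest number together with Col23a1. The first of them lay 905 bp after the TSS at 52.92 and 36.55 (pooled 93.53), and the strongest lay 87608 bp along, in intron 22, at 108.7 and 123.3 (pooled 224.3). A further Col5a1 peak lay 489 bp upstream of the TSS at 25.84 and 9.771 (pooled 34.76) and was not in the conservative list. Col5a2 lies tail to tail with Col3a1, with 24614 bp and no summit between the 2 genes. It had a peak at 1694 bp of 24.57 and 15.21 (pooled 38.32) and a stronger one at 71195 bp of 73.36 and 77.14 (pooled 149.7). Col5a3 had a peak at 2239 bp of 23.45 and 9.875 (pooled 35.02), which was absent from the conservative list and low in replicate 2.

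The cartilage fibril genes were uneven. Col2a1, the main collagen of cartilage, had 5 inside peaks, all of them lower than the 2 highest of Col1a1. Its highest lay 12152 bp after the TSS in intron 16, at 34.6 and 31.73 (pooled 67.62). Its peak at 1308 bp was among the weakest printed here, at 12.72 and 3.236 (pooled 15.44), and was not in the conservative list. Col11a1, a chain of type XI collagen, had a peak 2006 bp after the TSS of 55.77 and 56.32 (pooled 113.9). Col11a2, another type XI chain, had no promoter peak and no inside peak, although 25 summits lay within 100 kb of it, as many as around Col1a1. Its nearest summit was 5085 bp from the first TSS.

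Among the minor fibrillar genes, Col27a1, a fibrillar chain found in cartilage, had the strongest promoter peak of all collagens. It lay 1304 bp after the first TSS, within 1 kb of another annotated TSS, at 180.7 and 167.4 (pooled 349.7). Weaker Col27a1 summits flanked it, 39 bp before the TSS at 45.62 and 35.8 (pooled 80.7) and 2150 bp after it at 69.87 and 59.82 (pooled 127.8). Col24a1 was the only fibrillar gene besides Col11a2 with no summit within 5 kb of its first TSS; its 6 inside peaks began 69010 bp along the gene and reached a pooled signal of 80.37. Of the 41 peaks inside fibrillar genes, 41.5% lay in the first 25% of the gene's length and 7.32% in the last 25%. For other protein-coding genes the shares in the first and last 25% were 30.7% and 26.4%. These shares were not tested. Of the 17 fibrillar peaks in the first 25%, 11 were those already counted in the downstream window chosen after the summit positions had been seen. The high share in the first 25% is therefore mostly the same observation and not a separate one.

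By the usual promoter definition, a summit within 1 kb of any annotated TSS, collagens were near the rest of the genome at this width. A promoter peak was found at 15 of 44 collagen genes (34.1%, interval 20.5 to 49.9%), against 33.4% of all protein-coding genes. By subfamily the counts were 6 of 11 fibrillar, 2 of 9 network, 2 of 9 FACIT, 1 of 6 beaded filament, 3 of 4 transmembrane, 0 of 2 multiplexin and 1 of 3 other genes. The exact intervals of all 7 subfamilies contain the share of all genes. The 24 promoter peaks had a median pooled signal of 69.5, beside 49.97 for other protein-coding genes, and 62.5% had a motif, beside 62.0%. Within 5 kb of any TSS the counts were further apart, 31 of 44 collagen genes (70.5%) against 52% of all protein-coding genes, also untested. Within 5 kb of the first TSS alone the gap was smaller. There 24 of 44 collagen genes (54.5%) had a summit, beside 43.6% of the 21711 other protein-coding genes with a measured distance. Within 1 kb of the first TSS alone, 10 of 44 collagen genes kept a promoter peak, beside 26.1% of other protein-coding genes. Col2a1, Col11a1, Col14a1, Col25a1 and Col26a1 lost theirs. In the last 4 of these the promoter peak lay far inside the gene at an internal transcript start, such as 116787 bp along Col11a1, at 44.56 and 34.49 (pooled 78.12).

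**Figure D2:**
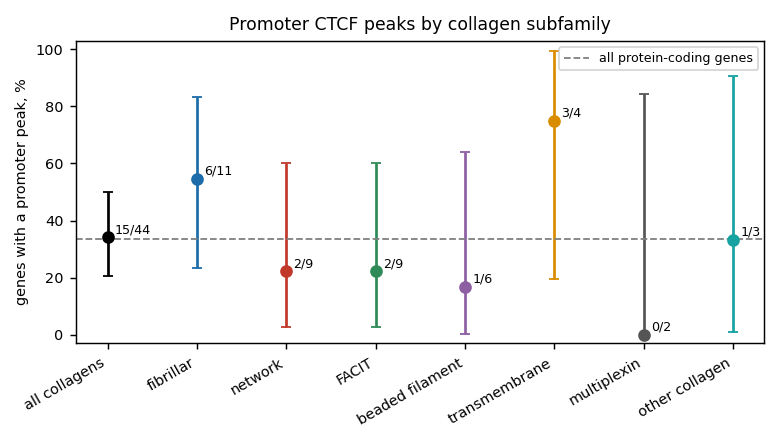
Percent of genes with a CTCF summit within 1 kb of any TSS, for all 44 collagen genes and for each subfamily on the x axis, with exact 95% binomial intervals as bars and counts beside the points. The dashed line is the share of all protein-coding genes, 33.4%, which every interval contains.

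The type IV collagens of basement membranes start back to back, and 1 of the 3 shared starts had a CTCF peak. The first TSSs of Col4a1 and Col4a2 lie 21 bp apart with overlapping 5′ ends, those of Col4a4 and Col4a3 are 72 bp apart and those of Col4a6 and Col4a5 are 1309 bp apart. The count took summits between the starts or within 1 kb of them, which 42.3% of 1322 back-to-back coding pairs with starts within 2 kb had, and 3 pairs are too few to tell from that share. The peak, at Col4a1/Col4a2, lay 253 bp before the Col4a2 TSS and in coding exon 1 of Col4a1. Its signals were 9.127 and 7.942 (pooled 20.03), it had no motif, and it was not among the strongest peaks of either replicate, taken at the length of the optimal list. The other 2 pairs had no summit within 10 kb of either start. For Col4a4 and Col4a3 the nearest summit was 32323 bp from the Col4a4 start, and for Col4a6 and Col4a5 it was 53369 bp from the Col4a6 start.

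Strong type IV peaks lay deep inside the genes. In Col4a1 the highest was 59136 bp along, in intron 2, at 197.5 and 147.4 (pooled 346.3). In Col4a2 the highest of 8 inside peaks was 80177 bp along, in intron 4, at 136.3 and 138.4 (pooled 272.5). The motifs of these 2 peaks point toward each other across the shared start. Col4a3 had 1 inside peak, 54946 bp along at 175.7 and 147.5 (pooled 321.8), and Col4a4 had 3, of which the highest was 110370 bp along at 143.4 and 130.7 (pooled 276.0). On chromosome X, Col4a5 had 1 inside peak at 34.71 and 28.75 (pooled 65.52), and the 4 peaks inside Col4a6 reached 41.69 and 43.45 (pooled 83.5). The highest peak of this pair was lower than that of either other pair.

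The other network genes also lacked promoter peaks. Col8a1 and Col8a2 encode the chains of type VIII collagen, found around endothelium and in the cornea. The highest Col8a2 peak lay in intron 3 at 124.6 and 117.6 (pooled 247.0), close to a coding exon peak of 30.36 and 38.97 (pooled 76.39). The highest Col8a1 peak lay 120383 bp along at 115.2 and 110.0 (pooled 225.9). Col10a1, made by hypertrophic chondrocytes, is the shortest collagen gene at 7.1 kb and had no promoter or inside peak, with its nearest summit 9474 bp from the TSS. Of the 30 peaks inside network genes, 16.7% lay in the first 25% of the gene's length and 46.7% in the last 25%, the reverse order of the fibrillar genes. This order was not particular to network genes. The shares were 14.8% and 37.0% in FACIT genes and 20.7% and 37.9% in transmembrane genes, and none was tested.

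The 27 peaks inside FACIT genes had a median pooled signal of 52.94, beside 52.65 in other protein-coding genes, and a few of them were among the strongest inside any collagen gene. Col22a1, found at tissue junctions such as muscle and tendon, had a peak in intron 23 of 238.5 and 196.6 (pooled 427.8). Col16a1 had a peak in intron 55 of 220.9 and 197.9 (pooled 418.5) and a coding peak in exon 33 of 62.89 and 72.31 (pooled 136.3). Col20a1 had 1 inside peak, in intron 9, at 135.1 and 135.8 (pooled 268.6). The type IX genes, whose product decorates cartilage fibrils, had no promoter peak at any of Col9a1, Col9a2 and Col9a3. Col9a2 had a peak in intron 2, 1746 bp after the TSS, at 92.37 and 88.86 (pooled 179.1). The highest Col9a1 peak lay near the gene's end, in intron 37, at 133.5 and 122.5 (pooled 253.2), while Col9a3 reached 23.76 and 15.28 (pooled 40.58). Between the tail-to-tail genes Col9a1 and Col19a1, 9205 bp apart, lay a weak peak without a motif, at 9.659 and 16.95 (pooled 27.62).

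Col12a1 and Col14a1, whose products bind type I fibrils, both had weak promoter peaks. At Col12a1 the promoter peak was 11.82 and 16.95 (pooled 27.44) without a motif, and a stronger peak with a motif followed 1737 bp after the TSS at 94.19 and 72.87 (pooled 166.9). At Col14a1 the promoter peak, 141411 bp along at an internal start, was 17.79 and 14.83 (pooled 32.28). Col19a1 had 6 inside peaks in 325.6 kb, of which the highest was 105.9 and 89.01 (pooled 192.3).

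Beaded filament genes encode type VI collagen, which forms microfibrils around muscle fibres and other cells. Col6a2 had a strong promoter peak 180 bp after its TSS in exon 1, at 119.8 and 121.3 (pooled 239.2). Its neighbour Col6a1, 85161 bp away in the same direction, had neither a promoter nor an inside peak, and no summit lay between the 2 genes. Col6a3 reached 80.46 and 66.29 (pooled 149.8) at 3513 bp after the TSS, and also had a coding peak in exon 2 of 23.62 and 22.18 (pooled 47.73). The Col6a4, Col6a5 and Col6a6 genes follow each other on chromosome 9. Between Col6a6 and Col6a5 lay a peak of 28.74 and 25.44 (pooled 53.67), and between Col6a5 and Col6a4 a peak of 67.13 and 61.66 (pooled 129.4). The highest inside peaks of Col6a5 (138.3 and 109.4, pooled 248.0) and Col6a6 (123.1 and 116.4, pooled 240.7) lay close to the ends of the genes.

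Of the 4 transmembrane genes, 3 had a promoter peak, and their median of 7.5 inside peaks was the highest of the subfamilies. Their median length, 217.4 kb, was also the highest. Col23a1 had a promoter peak 298 bp upstream of its TSS at 139.8 and 130.3 (pooled 266.6) and 11 inside peaks, the highest at 141.0 and 160.7 (pooled 303.5). Col13a1, which acts at the neuromuscular junction, had its strongest promoter peak at an internal start 101110 bp along, at 153.5 and 161.6 (pooled 318.9). It also had 2 weaker summits after its first TSS, at 981 bp (29.35 and 29.78, pooled 60.89) and at 1852 bp (33.02 and 14.99, pooled 45.59), and neither had a motif. Col25a1, the longest collagen gene at 468.4 kb, had 7 inside peaks, of which 3 lay close together near its end and reached 91.78 and 87.99 (pooled 181.9). Col17a1, a component of hemidesmosomes in skin, had no promoter peak and reached 130.4 and 125.8 (pooled 252.9) in intron 33. Transmembrane genes had 3.06 inside peaks per 100 kb. The density was higher in multiplexin (5.93), other (4.63) and fibrillar genes (3.92), and lower in beaded filament (2.52), network (2.48) and FACIT genes (2.46).

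The strongest peak inside any collagen gene was in Col18a1, a multiplexin whose C-terminal fragment is endostatin. Its signals were 262.9 and 268.2 (pooled 526.3), which ranked 10 among all optimal peaks, and a second Col18a1 peak reached 189.2 and 175.7 (pooled 367.5). Motifs of both point against the direction of transcription. Col15a1, the other multiplexin, had 4 inside peaks, the highest at 116.2 and 124.2 (pooled 241.7). Neither gene had a promoter peak. Col26a1 had the most inside peaks of all collagens, 14 in 141.5 kb, and the most summits within 100 kb, 29. Its highest lay in intron 3 at 176.6 and 175.8 (pooled 355.2), and its peak 1642 bp after the TSS was 161.0 and 128.1 (pooled 285.5). Col7a1, which forms the anchoring fibrils of skin, had neither a promoter nor an inside peak, and its nearest summit lay 3612 bp from the TSS. Col28a1 had a coding peak in exon 19 of 37.49 and 42.5 (pooled 78.69).

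**Figure D3:**
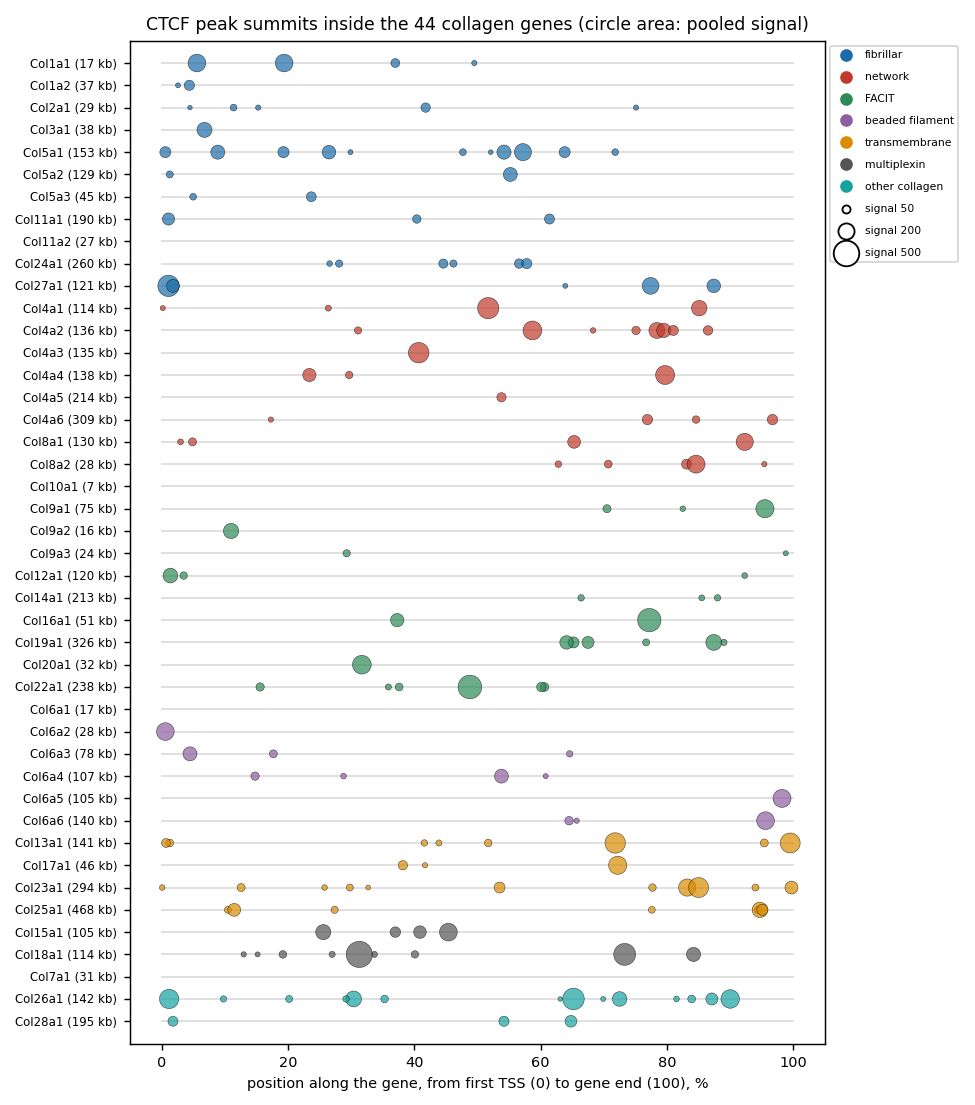
Position of each CTCF summit inside the 44 collagen genes, from the first TSS at 0% to the gene's end at 100% on the x axis, with gene lengths in kb on the y axis and circle area giving pooled signal. Of fibrillar summits, 41.5% lie in the first 25% of the length. Of these 17 summits, 11 are those in the downstream window chosen after the positions had been seen. The last 25% holds 46.7% of network, 37.0% of FACIT and 37.9% of transmembrane summits. Col6a1, Col7a1, Col10a1 and Col11a2 have none.

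Across the family, 40 of 44 collagen genes (90.9%) had a summit between gene start and end, against 48.8% of all protein-coding genes. Collagen genes are long, with a median of 114.4 kb beside 17.4 kb for other protein-coding genes, so the genes were also compared within 3 ranges of length. The ranges do not match lengths fully: the median under 50 kb was 27.9 kb for collagen and 11.3 kb for other genes, and from 50 to 150 kb it was 120.0 and 78.8 kb. Under 50 kb, 11 of 15 collagen genes (73.3%) had an inside peak, beside 38.1% of others, at 6.4 and 4.05 peaks per 100 kb. From 50 to 150 kb, 18 of 18 had one, beside 81.0%, at 3.89 and 2.73 per 100 kb. Above 150 kb, 11 of 11 had one, beside 94.4%, at 2.13 and 1.7 per 100 kb. These densities pool the genes of a range and count a summit once for each gene that holds it. Over all lengths, with each summit counted once, the pooled density was 3.15 beside 2.42 per 100 kb. The median density of single genes was 4.44 for collagen and 0.0 for other genes under 50 kb. It was 3.77 and 2.13 from 50 to 150 kb, and 1.58 and 1.57 above 150 kb. These differences were not tested. All 44 collagen genes had a summit within 100 kb, against 90.1% of all protein-coding genes, with a median of 9.5 beside 8 summits. That window includes the gene and is wider for long genes, and per 100 kb of window the medians were 3.09 for collagen and 3.22 for other genes.

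**Figure D4:**
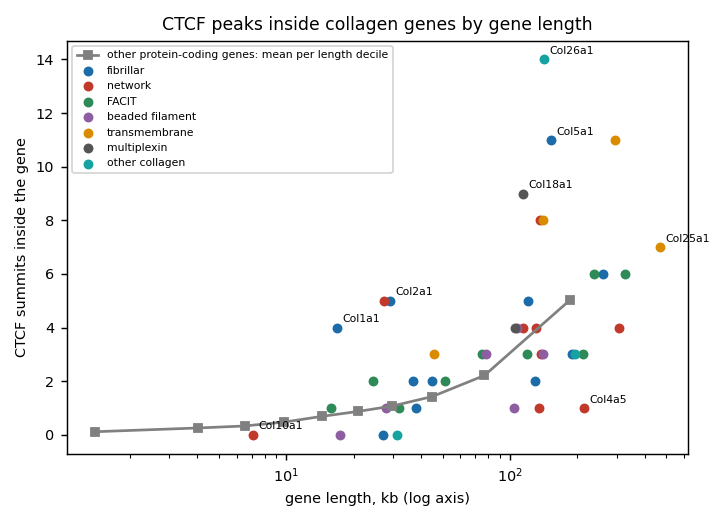
Number of CTCF summits inside each collagen gene (points, coloured by subfamily) against gene length in kb on a log axis, with the mean of other protein-coding genes in each length decile as squares. Col1a1, with 4 summits in 16.8 kb, and Col26a1, with 14 in 141.5 kb, lie above the line of other genes, and Col4a5, with 1 in 213.8 kb, lies below it.

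The 169 peaks inside collagen genes had values near those of peaks inside other genes. Their median pooled signal was 60.89 (quartiles 33.21 and 152.0), beside 52.65 (28.56 and 126.2), and their median rank among optimal peaks, as a percentile of signal, was 51.4 beside 46.7. A motif was found at 80.5% of them, beside 79.1%, and in 49.3% of those it lay on the gene's own strand, beside 48.6%. By place, 151 lay in introns, 6 in coding exons and 12 in noncoding exons or UTRs, and none lay inside a second coding gene. The coding share of 3.55% (interval 1.31 to 7.57%) was below the 7.1% of other genes, while coding sequence makes up 3.76% of collagen and 3.38% of other gene length. The 6 coding peaks were in Col16a1, Col28a1, Col8a2, Col6a3, Col23a1 and Col4a1, and the last 2 had no motif.

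Around each gene, the nearest motif-bearing peak before its start and after its end were compared by direction. They pointed toward each other at 15 of 44 collagen genes (34.1%), beside 27.9% of other genes, away from each other at 8 (18.2% beside 23.7%) and the same way at 21 (47.7% beside 48.3%). The interval for the facing share, 20.5 to 49.9%, contains the share of other genes. In the 300 bp promoter windows of RefSeq, 13 of 35 matched collagen genes (37.1%) held a matrix match, beside 26.0% of all genes. Of these 13, 5 had a promoter peak by the 1 kb definition (Col4a2, Col6a2, Col13a1, Col25a1 and Col27a1). The promoter peaks of Col4a2 and Col25a1 had no motif at the summit, and that of Col25a1 lay 49010 bp along the gene.

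Agreement between the libraries was described by signal. The optimal list was itself made from both replicates, and each replicate list holds 300000 peaks, so a summit in both lists (167 of the 169 inside peaks) is no check of reproducibility. Among the strongest peaks of each replicate, at the length of the optimal list, 82.2% of the inside peaks were present in both, beside 81.2% of all optimal peaks. After scaling each replicate by its median, 83 were higher in replicate 1 and 84 in replicate 2. The SD of the log2 ratio between replicates was 0.563 over inside peaks and 0.501 over all optimal peaks. It was 0.27 for the 87 inside peaks above the median pooled signal and 0.765 among the 82 others. A ratio needs both values, so weak peaks of Col5a1 (pooled 17.04) and Col6a4 (pooled 19.5) without a replicate 2 value were left out. The weak Col2a1 peak at 1308 bp had a scaled log2 ratio of 1.9, while that of the Col4a1/Col4a2 peak was 0.13.

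**Figure D5:**
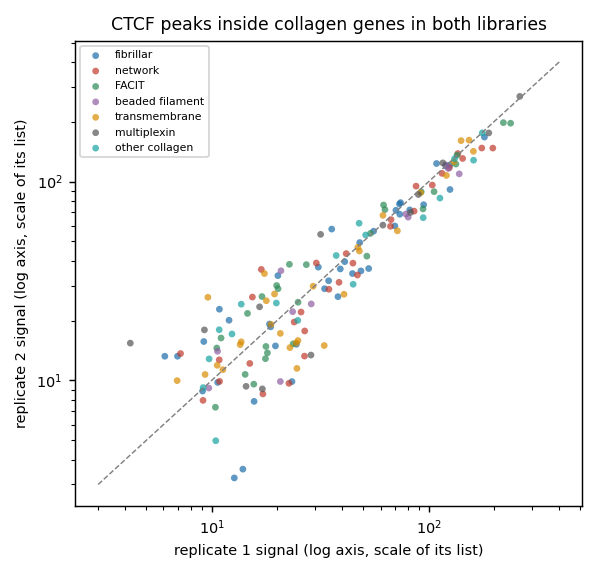
Signal in replicate 1 against replicate 2 for CTCF peaks inside collagen genes, both on log axes in the scale of each list, coloured by subfamily, with equality dashed. Strong peaks such as that of Col18a1 (262.9 and 268.2) lie on the line, and weak peaks scatter around it.

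Genes whose products act on collagens were described in the same way. Of the 18 genes for chain modification and folding, 10 had a promoter peak, led by the prolyl 3-hydroxylase genes P3h1 at 116.4 and 94.12 (pooled 211.3) and P3h3 at 96.55 and 92.49 (pooled 188.4). Serpinh1, which encodes the collagen chaperone HSP47, had none. For secretion, processing and crosslinking, 6 of 15 had one, led by Bmp1, a procollagen C-proteinase, at 96.29 and 102.2 (pooled 197.2), and by Mia2 at 41.58 and 48.65 (pooled 90.48). Of the 10 receptor genes, 6 had one, led by the integrin genes Itga2 at 65.15 and 51.75 (pooled 118.2) and Itgb1 at 57.85 and 49.09 (pooled 106.6). Of the 8 collagen-degrading protease genes, 2 had one, Mmp9 at 127.9 and 131.5 (pooled 257.3) and Mmp14 at 20.21 and 18.55 (pooled 42.87). The exact interval of each of the 4 lists contains the share of all protein-coding genes, 33.4%.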

How the data were processed

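CTCF chromatin immunoprecipitation sequencing was deposited as narrowPeak lists on mm10, per the file headers and labels. The deposited signal of each peak is the authors' own value on the scale of its list. For the aligner, peak caller, thresholds, control and normalization: not given in the sources used here. Without read counts in the lists, read depth is unknown.

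Peaks of the optimal list were placed on GENCODE M21 genes and on the genome assembly GRCm38.p6 (mm10). Summits within 1 kb of any TSS counted as promoter. The CTCF matrix was learned from the strongest 1000 peaks of odd autosomes. The counting and motif steps were tested on simulated data. Python 3.11.15, pandas 2.3.3, numpy 2.4.6, scipy 1.17.1 and pysam 0.24.0 were used. RefSeq promoter sequences (GRCm38.p6) matched 35 of the 44 genes. Subfamily, pathway and gene lists were chosen with earlier results of these data known. The named genes were the paired and neighbouring collagens, the 3 members of each subfamily with the strongest promoter peak, the 5 with the most and the 5 with the strongest inside peaks, 9 limb collagens, members with no peak, and the 2 strongest of each pathway list. Peaks just downstream of fibrillar starts were named after their values were seen. Alternatives were other peak lists, promoter widths, windows, motif settings and each replicate's own strongest peaks.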

Additional observations from a re-analysis of the deposited data

How the results depend on the processing

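No test was run, so the alternatives show only how far values moved. Of 87 alternative values, 70 stayed close to the value given above and 17 did not. Close means within 1.5 times for counts, medians and densities, within the exact interval for shares of peaks, and within the replicate SD for the percentile. No paired analysis was possible because both libraries belong to 1 group. Keeping the strongest 50% of optimal peaks left a promoter peak at 9 collagen genes (beside 17.2% of other genes), 0 network and 0 FACIT genes, a median of 1.5 peaks inside, 1.62 per 100 kb (beside 1.13 in other genes), 6 within 100 kb, and a motif at 95.4%. With promoters of 5 kb the promoter counts were 31 of all, 4 of network and 7 of FACIT genes (beside 52.0% of other genes). With the first TSS alone 1 FACIT gene had a promoter peak (beside 26.1% of other genes). Among peaks strong in both replicates, 0 network genes had a promoter peak (beside 27.7% of other genes). The count was also 0 without replicate 1 (beside 33.8%) and without replicate 2 (beside 34.3%). A window of 250 kb gave a median of 20 summits (beside 17 for other genes). The stricter motif score gave 60.9% (beside 57.3% in other genes), and counting any exon gave 10.7% (beside 19.9%). Leaving out replicate 2 gave 14 promoter genes (beside 34.3% of other genes), and leaving out replicate 1 gave 16 (beside 33.8%). For the window 0.5 to 3 kb downstream, all settings were added after seeing the data. There the 9 fibrillar genes became 7 in the conservative list (beside 12.4% of other genes), where Col2a1 and Col5a3 were lost. They became 7 without replicate 1 (beside 12.8%) and 6 among the strongest 50% (beside 5.62%). Depth is unknown, and weak peaks such as that of Col4a1/Col4a2 rest on low signal in both libraries.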
